A study of Venturia canescens with 6 samples.

Results

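The 204 expressed gene models numbered g2001 to g5500 are described here, as measured by RNA sequencing of female heads of Venturia canescens, a parasitoid wasp. A gene model is a stretch of sequence that an annotation predicts to be a gene. The range holds 3500 of the 22333 models in the table. A model was a member when it reached at least 2 CPM (the count of a model as a share of its library's total, times 1000000) in at least 3 of the 6 libraries, and 10730 models of the whole table met that level. The range was singled out in earlier results of the same libraries, where few of its models were expressed and many of those differed between the populations. Counts of members that differ are therefore given as a description, beside the same count over all models.

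Sexual females (3 libraries) and asexual females (3 libraries) were compared, each library from a pool of 30 heads taken at emergence and frozen, with polyadenylated RNA sequenced. The labels give no treatment for either group. The labels give 1 sexual and 1 asexual population, with no age beyond emergence and no strain name, so reproductive mode and any other difference between these populations cannot be told apart. The design text calls the pools biological replicates without saying whether they came from separate cultures, and p-values measure only the spread between these pools. Library totals ranged from 9265064 to 13117716 counts, so that 1 count was 0.0762 to 0.108 CPM. The most that a count of 0 allows, taken as 3 counts, was 0.229 to 0.324 CPM, for counting error only.

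In wasps, fertilised eggs usually give daughters and unfertilised eggs give sons. In asexual Venturia canescens, daughters arise from unfertilised eggs, so a population can persist without males. The head of a parasitoid female holds the brain, eyes, antennae, mouthparts, fat tissue and glands with which she finds hosts and food. A library of pooled heads sums these tissues, and fewer cells of a type cannot be told apart from less RNA per cell. The models carry numbers only, and 0 of them matched the RefSeq gene table of the species, so that no member has a function here and the head label could not be checked against marker genes.

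Most models of the range had few or no reads. Of the 3500, 1203 had no count in any library and 3296 in all fell short of the level rule. Members made up 5.83% of the range, while 55.9% of the 18833 models outside it met the same level. The members took 0.486%, 0.592% and 0.495% of the counts in sexual pools 1, 2 and 3. They took 0.421%, 0.417% and 0.389% in asexual pools 1, 2 and 3, so the sexual pools were all above the asexual ones. The 8 members with a mean over 100 CPM gave about as many counts as the other 196, at 0.263% ± 0.0631 of a sexual and 0.200% ± 0.0094 of an asexual library (SD, n = 3). Those 196 held 0.261% ± 0.00418 of the counts in sexual and 0.209% ± 0.00827 in asexual pools (SD, n = 3). The median member had a mean of 7.38 CPM over the 6 pools (quartiles 2.85 and 18.9), against 30.1 CPM for the 10526 models outside the range that met the rule. CPM is not divided by model length, which the table does not give, so these are read levels and not transcript levels.

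The members had reads in different sets of pools. Of the 204, 128 reached 2 CPM in all 6 pools. Another 15 reached it in the 3 sexual pools alone and 25 in the 3 asexual pools alone. In these the populations had to lie on either side of 2 CPM, by whatever distance, and some of them were not called. The last 36 reached it in other sets of 3 to 5 pools. At the edge of the rule, g3160 had a third-highest level of 2.002 CPM and g5137 one of 2.04 CPM, just inside. Models g4062 (1.98 CPM) and g5310 (1.94 CPM) lay just outside. A further 26 models of the range under the rule had at least 10 counts over the sexual pools and none in the asexual pools, and 12 had the reverse.

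The comparison of interest was how heads of asexual and sexual females differ at these models. All 204 members passed the count filter of the test, and 122 were called at an adjusted p under 0.05 (edgeR quasi-likelihood test, Benjamini-Hochberg over all 11700 models tested). That is 59.8% of the members, where 12.9% of all models tested were called. Of the called members, 55 were higher in asexual females (27.0% of members, against 6.79% of all models tested). The other 67 were lower (32.8% of members, against 6.06% of all models tested). Differences over 2-fold were called for 88 members, 42 higher and 46 lower in asexual females. Of all models tested, 4.53% were called at that size, 2.21% higher and 2.32% lower. Over 4-fold, 46 members were called, against 1.78% of all models tested. The pools of the populations did not overlap for 137 members (67.2%), against 32.3% of all models tested. The 15 members at 2 CPM in the sexual pools alone and the 25 in the asexual pools alone could not overlap, by the level rule. Of the 128 members at 2 CPM in all 6 pools, 83 did not overlap (64.8%). The share was 30.9% for the 9925 models outside the range at that level. Since the range was chosen with such calls known, these shares are not a test of it.

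The difference was present as well in members that every pool expressed. Of the 128 members at 2 CPM or more in all 6 pools, 73 were called (57.0%), with 25 higher and 48 lower in the asexual pools. Among the 9925 models outside the range at that level in all 6 pools, 11.1% were called, 600 higher and 501 lower. The median absolute log2 fold change was 0.67 over the 128 members and 0.16 over the 9925 other models. Over all 204 members it was 0.81, whether or not members without reads in a population were set to their lower bound. Of the 76 members below 2 CPM in some pool, 49 were called, 30 higher and 19 lower. Called members that were lower in asexual females were thus the larger number among members expressed throughout, and the smaller number among the rest. Of these 76, however, 25 met the level in the asexual pools alone and 15 in the sexual pools alone. For them the level rule itself set the direction. Whether the direction differs between these sets was not tested.

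**Figure D1:**
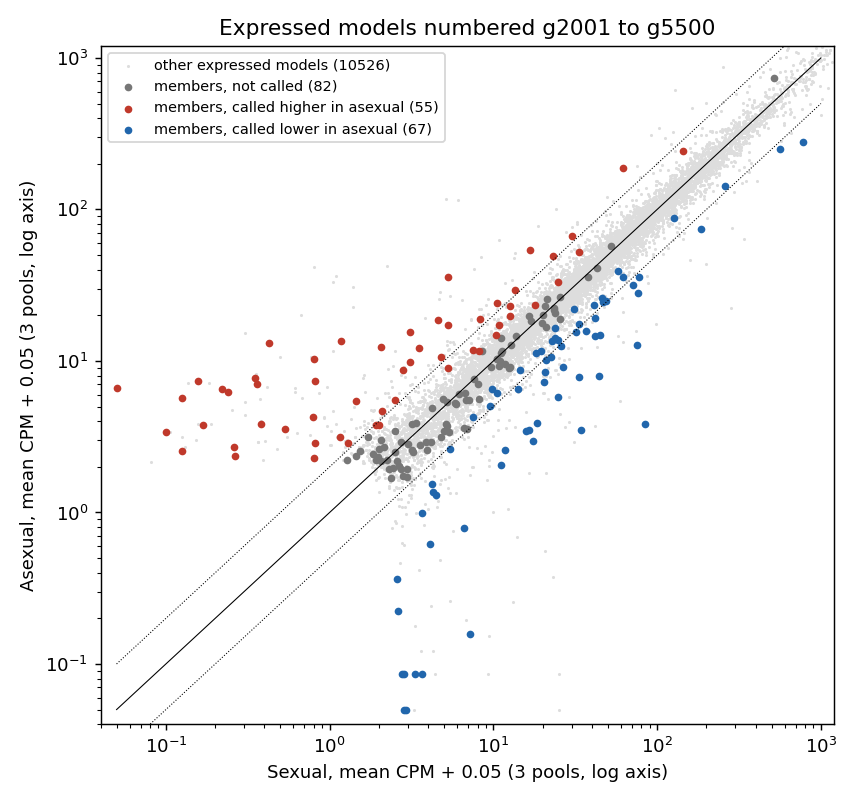
Mean CPM in asexual pools against mean CPM in sexual pools for the 204 members (coloured by call) and the 10526 other expressed models (grey), both axes logarithmic with 0.05 added. Other models reach a mean of 44100 CPM, and those beyond the upper end of the axes are not drawn. The solid line marks equal levels and the dotted lines a 2-fold difference. The 55 members called higher and 67 called lower lie on both sides of the grey cloud, at low and at high read levels.

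**Figure D2:**
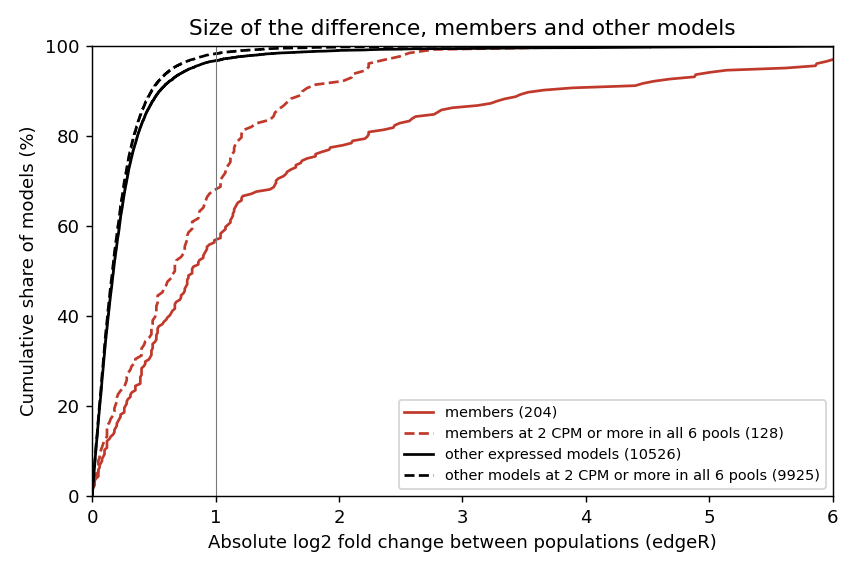
Cumulative share of models (percent) by absolute log2 fold change between populations. The vertical line marks 2-fold. The curves of the members lie below those of the other models, also where both are limited to models at 2 CPM or more in all 6 pools (128 and 9925 models, medians 0.67 and 0.16).

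On/off differences were few. A member was counted as on/off when it had under 3 counts in each pool of a population and at least 2 CPM in each pool of the other. Only 8 of the 204 met this. Of these, 6 had reads in sexual pools (2.94% of members, against 0.128% of all models tested). The other 2 had reads in asexual pools (0.98% of members, against 0.0513% of all models tested). All 8 met the level rule through a single population, so these shares are a description. All 8 had low read levels, with means over the 6 pools from 1.38 to 3.29 CPM. The other called members were near this state or differed by degree.

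Member g2529 had no count in any sexual pool and 59, 83 and 61 counts in asexual pools 1, 2 and 3, or 6.37, 7.84 and 5.55 CPM. Taking 3 counts per sexual pool, its asexual level was at least 25.2-fold higher (edgeR adjusted p = 3.02e-05). The groups are separated by every pool. Member g4281 had 27, 50 and 27 counts in the asexual pools and 2 in the sexual pools, both in sexual pool 3. Its ratio of counts scaled to library size was 58.6 (95% counting interval 15.8 to 490; edgeR adjusted p = 0.000244).

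Of the 6 on/off members with under 3 counts in each asexual pool, g3106 had the smallest spread between sexual pools. It had 34, 31 and 35 counts in sexual pools 1, 2 and 3 and none in asexual pools, so that its asexual level was at least 9.86-fold lower (edgeR adjusted p = 0.000155). Member g5137 had 22, 29 and 48 counts in the sexual pools and none in the asexual pools, at least 9.51-fold lower (edgeR adjusted p = 0.000443). These bounds are limited by the low read levels of both members. The remaining members, g2733, g4039, g4879 and g2341, each had a single asexual count. That count was in asexual pool 1 every time.

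Member g2733 had 53, 34 and 37 counts in sexual pools 1, 2 and 3, and its sexual to asexual ratio of counts was 110.0 (95% counting interval 19.4 to 4380). Member g4039 had 46, 28 and 38 sexual counts and a ratio of 99.4 (17.5 to 3960). Member g4879 had 23, 31 and 45 sexual counts and a ratio of 87.9 (15.4 to 3510). The intervals overlap widely, so no order among these members can be read from them.

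Another 10 members came close to on/off. Their median library in the low population had under 3 counts, but another had 3 or more. In 8 of them the sexual pools were low. Sexual pool 3 held 35 of the 48 sexual counts of these 8 members, sexual pool 1 held 9 and sexual pool 2 held 4. Sexual pool 3 reached 3 counts for 7 of the 8. It was also the largest library, at 13117716 counts against 10796771 and 10827658 in sexual pools 1 and 2. In the other 2 the asexual pools were low, and asexual pool 1 held 7 of their 8 asexual counts. Asexual pool 1 was the smallest library, at 9265064 counts. With sexual pool 3 left out, 15 members met the on/off rule in place of 8. With sexual pool 3 and asexual pool 1 left out, 17 did. The rule is looser with fewer pools. A near on/off member has 3 or more counts in a single low pool. Once that pool is left out, the member is on/off by definition. The numbers 15 and 17 thus add nothing to the counts by pool given above. With under 10 counts allowed per pool the number was 23, and with no count allowed it was 3. The part of these pools in the number of on/off members cannot be given beyond these counts, and the source of their reads was not tested.

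Graded differences were called for 104 members, 45 higher and 59 lower in asexual females. Beyond the 18 members described so far, 4 called members differed by more than 16-fold and 24 by 4-fold to 16-fold. Another 42 differed by 2-fold to 4-fold and 34 by less than 2-fold. Of the 4, 1 was at 2 CPM in all 6 pools, and of the 24, 10 were. The split between near on/off and graded rests on a cut in counts. Member g4169, with 3, 0 and 3 counts in sexual pools 1, 2 and 3, was graded because its median was not under 3. Of the 24 members between 4-fold and 16-fold, 10 were higher and 14 lower in asexual females. Of the 42 between 2-fold and 4-fold, 19 were higher and 23 lower. The pools did not overlap for 103 of these 104 members, against 32.3% of all models tested. Since the 104 were chosen by being called, this adds no separate support.

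The widest graded difference among members expressed in every pool was at g3980. Its levels were 81.0, 95.2 and 74.9 CPM in sexual pools 1, 2 and 3 and 4.75, 3.31 and 3.37 CPM in asexual pools 1, 2 and 3. Each asexual pool thus kept some reads, at 35 to 44 counts, and lay far below each sexual pool. The log2 fold change was -4.46 ± 0.16 (SE, n = 3 and 3; edgeR adjusted p = 4.53e-07), a level 22.0-fold lower in asexual females.

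Member g3870 had 78.4, 75.5 and 71.0 CPM in the sexual pools and 15.2, 11.6 and 11.0 CPM in the asexual pools. Its log2 fold change was -2.57 ± 0.12 (SE; edgeR adjusted p = 1.12e-06). In proportion to their level, the sexual pools lay closer together than the asexual pools at this member. Member g4206 had 37.1, 44.1 and 50.8 CPM in the sexual pools and 9.82, 6.24 and 7.55 CPM in the asexual pools, a 5.6-fold lower level in asexual females (edgeR adjusted p = 1.03e-05). Member g2384 had 14.3, 21.5 and 19.1 CPM in the sexual pools and 4.10, 4.06 and 3.46 CPM in the asexual pools, 4.71-fold lower (edgeR adjusted p = 4.21e-05). In all 4 members the lowest sexual pool lay above the highest asexual pool.

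Among graded members that were at 2 CPM in all 6 pools and higher in asexual females, g3229 differed most. It had 36.5, 38.2 and 32.8 CPM in asexual pools 1, 2 and 3 and 5.84, 3.88 and 6.02 CPM in sexual pools 1, 2 and 3. The log2 fold change was 2.77 ± 0.15 (SE; edgeR adjusted p = 2.26e-06). Its asexual pools lay within a narrow band and every sexual pool was far below it.

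Member g2471 had 17.2, 13.1 and 16.2 CPM in the asexual pools and 2.87, 3.32 and 2.90 CPM in the sexual pools, a 5.13-fold higher level in asexual females (edgeR adjusted p = 1.52e-05). Member g2912 had 21.3, 17.0 and 17.7 CPM in the asexual pools and 4.17, 5.17 and 4.35 CPM in the sexual pools, 4.09-fold higher (edgeR adjusted p = 2.11e-05). Member g2928 had 11.4, 13.2 and 11.9 CPM in the asexual pools and 3.33, 2.68 and 4.35 CPM in the sexual pools, 3.51-fold higher (edgeR adjusted p = 0.000142). None of these members overlapped between populations, and none was near absent from sexual pools.

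**Figure D3:**
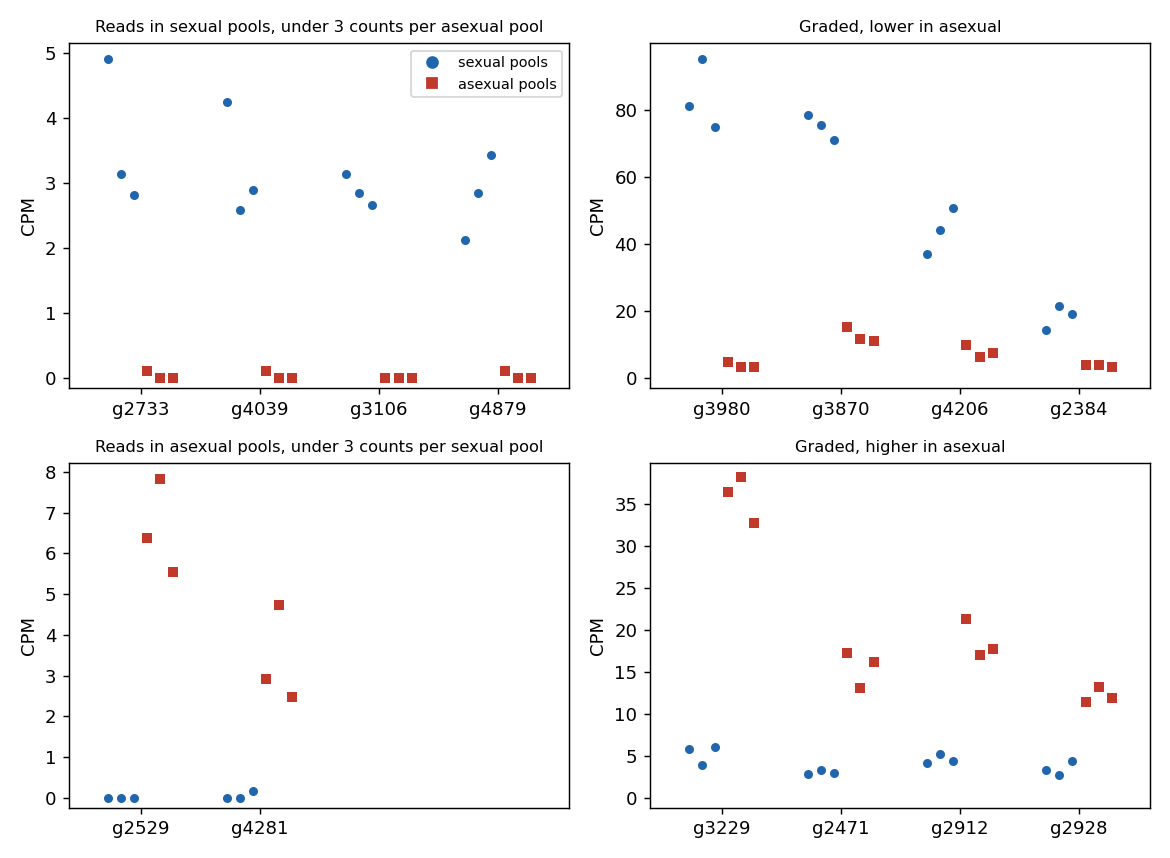
CPM in each pool for on/off members (left panels) and for the graded members with the largest fold changes among those expressed in all 6 pools (right panels). Circles are sexual pools 1 to 3 and squares asexual pools 1 to 3, from left to right within a member, and the vertical axes start near 0 and differ between panels. On/off members reach at most 7.84 CPM, whereas g3980 falls from between 74.9 and 95.2 CPM to between 3.31 and 4.75 CPM.

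For the 82 members that were not called, the absolute log2 fold change had a median of 0.275, and 55 of these members were at 2 CPM or more in all 6 pools. Their median read level was 5.2 CPM, against 10.03 CPM for called members. The smallest difference was at g4047, with 18.2, 19.6 and 22.3 CPM in the sexual pools and 20.2, 21.5 and 18.2 CPM in the asexual pools (edgeR adjusted p = 0.995). Members g3577, g2465 and g2282 likewise had log2 fold changes within 0.01 of 0, with SE from 0.15 to 0.2. At g4047 the SE was 0.12 on the log2 scale. A member that was not called can still differ, within the room that its SE leaves. The smallest called difference among members was 1.32-fold.

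Calls were found at every read level. The shares by level are a description, since the range was chosen with its calls known. Under 5 CPM the level rule also bears on them. There, 13 of 80 members and 601 of 1168 other models were at 2 CPM in all 6 pools. A model that met the rule through a single population had to have its populations on either side of 2 CPM. Of these 80 members with a mean under 5 CPM, 41 were called (51.2%), against 14.4% of the 1168 models outside the range at that level. The shares were 59.2% of 76 members and 10.8% of 2877 other models from 5 to 20 CPM. In that range 67 of the 76 members were at 2 CPM in all 6 pools, and above it all members were. From 20 to 100 CPM the shares were 72.5% of 40 members and 11.7% of 4489 other models. Above 100 CPM, 7 of 8 members and 13.5% of 1992 other models were called.

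Called members of both directions were found at each read level. Below 5 CPM, 25 called members were higher and 16 lower in asexual females, and from 20 to 100 CPM 8 were higher and 21 lower. The counts below 5 CPM include members that met the rule through the asexual pools alone (25 at all levels) or the sexual pools alone (15), and a change of direction with level was not tested. The median absolute log2 fold change over members was 0.96 under 5 CPM, 0.74 from 5 to 20 CPM and 0.87 from 20 to 100 CPM. Over the other models it was 0.33, 0.21 and 0.14 in these ranges. All 8 on/off members lay below 5 CPM.

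The spread between pools of a population was close to that of other models at low levels. The median SD of log2 CPM (1 CPM added) within populations was 0.221 for members and 0.222 for other models under 5 CPM. It was 0.183 and 0.161 from 5 to 20 CPM, and 0.132 and 0.113 from 20 to 100 CPM. Above 100 CPM it was 0.427 for the 8 members and 0.114 for the 1992 other models. The part of this larger spread in the calls of the most abundant members was not tested.

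The most abundant members varied strongly between pools of the same population. The 4 with the highest means were chosen by rule, and the other 4 above 100 CPM are named after their values were seen. Member g3729 had the highest mean, with 717, 367 and 474 CPM in sexual pools 1, 2 and 3 and 833, 567 and 800 CPM in asexual pools 1, 2 and 3. The populations overlapped and it was not called (log2 fold change 0.51 ± 0.22, SE; edgeR adjusted p = 0.164). It passed the threshold without sexual pool 1 (edgeR adjusted p = 0.023) and with no low-count filter (edgeR adjusted p = 0.0302).

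Member g4820 had 435, 1220 and 660 CPM in the sexual pools and 293, 341 and 198 CPM in the asexual pools. Sexual pool 2 was 2.81 times sexual pool 1, as wide a gap as the 2.79-fold difference between populations (edgeR adjusted p = 0.0141). It stayed called without each pool in turn, at log2 fold changes from -1.79 to -0.97, but not with sexual pool 3 and asexual pool 1 both left out (edgeR adjusted p = 0.0919). Member g4915 had 359, 865 and 464 CPM in the sexual pools and 270, 317 and 160 CPM in the asexual pools (log2 fold change -1.18 ± 0.32, SE; edgeR adjusted p = 0.0334). This call was lost in 5 of 6 fits that left out a pool, where log2 fold changes ran from -1.44 to -0.72, and by DESeq2 (adjusted p = 0.0911). With sexual pool 2 left out, the log2 fold change was -0.72 and the adjusted p by edgeR 0.0589.

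The pools took the same order in several of these members. Sexual pool 2 was highest and sexual pool 1 lowest for g4820, g4915 and g5068, and asexual pool 2 was highest and asexual pool 3 lowest. For g3729 and g5336 the highest and lowest sexual pools were exchanged, with sexual pool 1 highest and sexual pool 2 lowest. Their asexual pools took another order, with asexual pool 1 highest and asexual pool 2 lowest. Member g3773 stood apart, with 3403 counts in asexual pool 2 against 542 in asexual pool 1. It was called (edgeR adjusted p = 0.0464) although the populations overlapped.

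Abundance did not always go with such spread. Member g2087 had 239, 286 and 255 CPM in the sexual pools and 154, 144 and 131 CPM in the asexual pools, with a 1.2-fold range among sexual and a 1.18-fold range among asexual pools. It was 1.81-fold lower in asexual females (edgeR adjusted p = 0.000392), with no overlap. Member g2874 was 1.44-fold lower, at 127 ± 7.6 CPM in sexual and 87.9 ± 11.2 CPM in asexual pools (SD, n = 3; edgeR adjusted p = 0.00831).

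**Figure D4:**
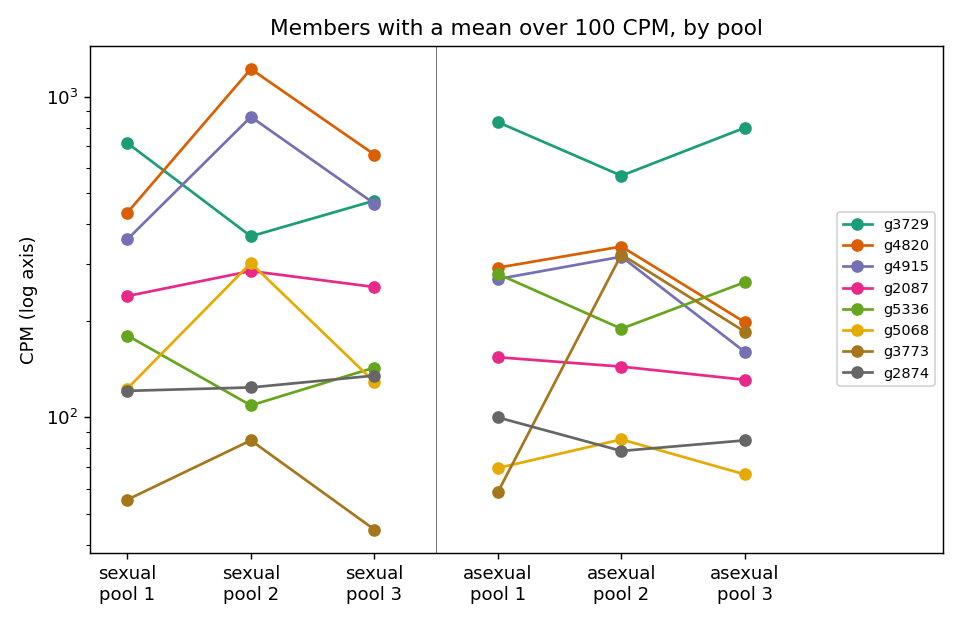
CPM on a logarithmic axis for the 8 members with a mean over 100 CPM, in sexual pools (left) and asexual pools (right). Lines only join the points of a member within a population, since pools have no order. Member g4820 reaches 1220 CPM in sexual pool 2, where g3729 is at its lowest with 367 CPM.

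Calls were spread along the numbering. In steps of 500 numbers from g2001 on, the share of members called ran from 7 of 14 to 19 of 26, on 14 to 46 members per step. From g2501 to g3000, 14 called members were higher and 5 lower in asexual females. From g4501 to g5000, 2 were higher and 10 lower. These steps were picked after their values were seen. In the remaining steps, in order, 9, 11, 6, 11 and 2 were higher and 10, 8, 13, 16 and 5 lower. Over all models tested, 6.79% were called higher and 6.06% lower. Whether direction differs between steps was not tested. The highest share, 73.1%, was at g3001 to g3500.

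Long runs of a shared direction were not seen, but the level rule left little room for them. Only 18 pairs of members had consecutive numbers, since most numbers between members belong to models with few reads. Both members were called in 8 of these pairs, 5 in the same direction (2 higher and 3 lower in asexual females) and 3 in opposite directions. Each run held 2 members. It ended because the numbers next to it belonged to no member, and not by a change of direction. With neighbouring members up to 5 numbers apart, both were called in 24 pairs, 10 in the same and 14 in opposite directions. The longest run then had 3 members, g4279, g4281 and g4285, all higher in asexual females. Outside the range, 124 of 166 pairs of consecutive numbers with both models called shared a direction (74.7%), against 5 of 8 for members (62.5%). For pairs up to 5 numbers apart, 150 of 205 did so outside the range (73.2%), against 10 of 24 for members (41.7%). These differences were not tested.

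The runs joined members of unlike behaviour as well as like. In the run g2528 and g2529, both members were near absent from sexual pools. Member g2528 had 57, 77 and 39 counts in asexual pools 1, 2 and 3, and its 3 sexual counts were all in sexual pool 3. Its asexual to sexual ratio of counts was 65.0 (95% counting interval 21.9 to 318). In the run g3870 and g3871, the latter had 244, 241 and 227 counts in the sexual pools and 93, 87 and 78 counts in the asexual pools. Its 2.45-fold lower level in asexual females (edgeR adjusted p = 0.000573) was a smaller difference than the 5.94-fold of g3870.

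In the run g4053 and g4054, the log2 fold changes were -0.86 ± 0.13 and -0.52 ± 0.11 (SE; edgeR adjusted p = 0.00141 and 0.0116). The call of g4054 was lost without asexual pool 2 (edgeR adjusted p = 0.0531). In the run g3404 and g3405, they were 0.52 ± 0.15 and 1.57 ± 0.29 (SE; edgeR adjusted p = 0.0423 and 0.00539). The call of g3404 was lost in 5 of 6 fits that left out a pool and by DESeq2 (adjusted p = 0.0672). The fifth run, g4083 and g4084, had log2 fold changes of -1.58 and -2.11.

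The pairs with opposite directions, named after their values were seen, included models in adjacent rows of the table. Member g2286 had 67, 82 and 100 counts in sexual pools 1, 2 and 3 and 3 asexual counts, all in asexual pool 1. Its neighbour g2287 had 10.7, 13.1 and 8.46 CPM in the sexual pools and 17.1, 17.5 and 16.7 CPM in the asexual pools, 0.67 ± 0.16 higher on the log2 scale in asexual females (SE; edgeR adjusted p = 0.0215). The next model in the table thus had reads in every pool and the opposite direction. Member g3921 was lower in asexual females (log2 fold change -1.51 ± 0.11, SE) and g3922 higher (0.64 ± 0.15, SE), with edgeR adjusted p-values of 1.29e-05 and 0.0188. Member g3338 had a log2 fold change of -0.81 ± 0.10 and g3339 of 1.12 ± 0.14 (SE).

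**Figure D5:**
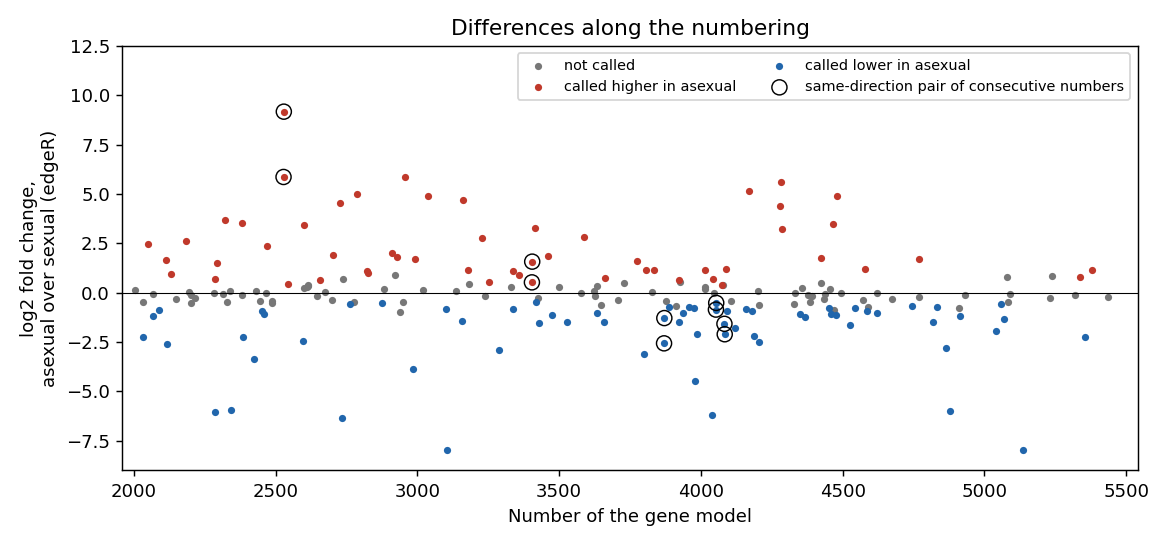
Log2 fold change (asexual over sexual, edgeR) of the 204 members against the number of the model, coloured by call. Circles mark the 5 same-direction pairs of consecutive numbers. Members called higher and members called lower both occur in each step of 500 numbers, and no marked run is longer than 2 members. Values of members without reads in a population depend on the prior count of the fit.

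The numbering and the row order of the table differed. The 3500 models of the range lay in 1660 separate stretches between rows 143 and 22268 of the 22333 rows, set between models of other numbers. A stretch held 1 to 3 models in 1406 cases (84.7%) and at most 16. Members g4083 and g4084 have consecutive numbers but lie in rows 3395 and 3498. Of the 204 members, 148 had a model from outside the range in an adjacent row and 18 another member. The files do not say whether rows follow the genome.

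The nearest tested models outside the range were called about as often in the opposite direction as in the same direction as the members. They formed 244 pairs with the 122 called members, above and below them in the table. The outside model was called in the same direction in 19 pairs and in the opposite direction in 20. Of the 219 different outside models in these pairs, 33 were called (15.1%), where 12.9% of all models tested were. Most models set around the called members were thus not called.

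A second part of the numbering, from g20001 on, was set beside this range for scale. Under the same level rule it held 234 models, of which 91 were called (38.9%), 47 higher and 44 lower in asexual females. Differences over 2-fold were called for 27.8% of them and for 43.1% of the members numbered g2001 to g5500. On/off differences were 6 there and 8 here. Both ranges were singled out with their calls known, and the difference between them was not tested.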

How the data were processed

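The values are whole-number read counts as the authors deposited them, not normalized, in a single table with a column for each of the 6 libraries. Trimmomatic, HISAT2 and DESeq2 appear in the submitters' processing notes, with no role or version. Which program counted the reads, on which strand, and against which annotation and genome build is not given in the sources used here. Reads shared by overlapping or antisense models can therefore not be told apart, although the kit marks strand, per the labels' protocols. Each column was matched to its library by the end of the source name, which also gives all libraries the same run and lane. No pools of the same population matched within sampling noise (chi-square per degree of freedom 8.45 to 22.0), and all 6 were kept.

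Members were found with CPM, here the deposited count divided by its column total. Populations were compared by the quasi-likelihood test of edgeR 4.0.16 (with limma 3.58.1 under R 4.3.3), fitted to all 6 libraries with population alone, after TMM scaling (factors 0.984 to 1.01) and filterByExpr. P-values were adjusted over 11700 models by the Benjamini-Hochberg method, and models under 0.05 were called. Fold changes are asexual over sexual unless stated. Each SE was derived from the log2 fold change and the F statistic. Counting intervals are exact binomial (95%) and, like the 3 counts taken as the limit of a 0, cover counting error only.

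Named are on/off members (up to 4 per direction), the 4 largest called changes per direction among members at 2 CPM in all 6 libraries, the 4 highest means, the 4 first of the longest runs of consecutive numbers, the models at the edge of the rule and the 4 smallest differences. Others were named after their values were seen, including g2341, g2286, g2287 and g4083. The members, lists and tests were chosen with earlier results of these data known. The main fit has no replicate block. Alternatives were other scaling factors, filters and tests (DESeq2 1.42.0, limma-voom), a 1.5-fold threshold, a replicate block, other member levels and leaving out libraries.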

Additional observations from a re-analysis of the deposited data

How the results depend on the processing

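Counts of called members (122, with 55 higher, 67 lower and 88 over 2-fold) moved within 1.5 times under other scaling factors, with no filter, by DESeq2 (120) and by limma-voom (120). With each library left out in turn, 99 to 120 members were called, 39 to 53 higher, 58 to 67 lower and 80 to 85 over 2-fold. All calls shared with the main ones kept their sign. A filter of 5 CPM in 3 libraries kept 130 members and called 34 higher, with 55 over 2-fold and 3 same-direction pairs. The test against a 1.5-fold change, stricter by construction, called 79, 35 higher and 44 lower, with 3 such pairs. Without sexual replicate 3 and asexual replicate 1 together, 35 were called higher and 3 pairs were left. Asking for 2 CPM in all 6 libraries left 73 called members, 25 higher and 41 over 2-fold, with 3 pairs. A member level of 1 CPM gave 8 pairs, and one of 5 CPM gave 3 pairs, 56 members over 2-fold and 1 on/off member. Pairs numbered 3 to 5 without single libraries (3 without asexual replicate 2), 10 for members up to 5 numbers apart and 3 for adjacent rows.

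On/off members numbered 8 to 15 without single libraries (15 without sexual replicate 3), 17 without sexual replicate 3 and asexual replicate 1, 3 with no count allowed and 23 with under 10 counts. The 15 and 17 follow from how near on/off members are defined. The replicate block gave 112 called members, 111 of which were also called without it. Of the named models, g3729 gained its call under the block (log2 fold change 0.54, edgeR adjusted p = 0.0378) and g3404 lost it (0.53, edgeR adjusted p = 0.0842). The deviations of same-numbered libraries correlated by -0.22, 0.00688 and 0.0416, and 0 libraries correlated best with their own number. Over 30 named models and 441 values under the alternatives, 25 lost their call, 3 gained one and 4 changed sign. These 4 were all of g2282 (0.03 by limma-voom, -0.20 to 0.09 without single libraries). Not counted were g2465, g3577 and g4047, whose main values round to 0. Without single libraries they took both signs (-0.13 to 0.08, -0.10 to 0.08 and -0.08 to 0.07). The fit of a named model does not depend on the member rule, so that alternative was not run on them. Depth limits folds below about 3 CPM, where a count of 0 allows 0.229 to 0.324 CPM.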
